A study of Mus musculus with 6 samples.

Results

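The 10 genes described here are the transcripts of 9 peptide precursors (Vip, Adcyap1, Npy, Gal, Cartpt, Grp, Penk, Calcb and Nmu) and of Nos1, the neuronal nitric oxide synthase, out of 23699 gene models measured in mouse duodenum. They were picked by name, as neuropeptide genes of the gut wall, with the values of Vip, Npy and Nmu in the comparison of mutants with controls already known. Their differences between the groups are therefore given as a description, and the p-values printed for them, from the fits and from the authors' table, come from the contrast that chose them and support nothing. RNA of the 2 cm of duodenum nearest the stomach was sequenced from 3 mutant and 3 control samples of 6-week-old mice of mixed background. The mutants were Nkx2.2flox/flox; Villin-Cre/+, and mutant 3 also carried Rosa26Tomato/+. The controls were Nkx2.2flox/+, so that they carried 1 floxed allele and no Cre. Villin-Cre acts in the intestinal epithelium, whereas the neurons of the gut wall lie outside it. Levels are FPKM (fragments scaled to transcript length and library size), as the authors deposited them. Changes are mutant minus control on the log2(FPKM + 0.5) scale with their standard error (SE), and this scale understates the change of low genes. Whether the samples came from different animals is not in the labels.

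The gut wall holds its own nervous system, whose neurons use peptides beside acetylcholine and nitric oxide. Vasoactive intestinal peptide (VIP) and nitric oxide relax gut muscle, and VIP also drives fluid secretion by the epithelium. Peptides are cut from longer precursors, stored in granules and act on G protein-coupled receptors of muscle, epithelium, immune cells and other neurons. In mice, Calcb and Nmu mark intrinsic sensory neurons of the gut, and neuromedin U acts through its receptor Nmur1 on type 2 innate lymphoid cells. In whole duodenum, fewer cells of a type and less RNA per cell cannot be told apart.

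Depth, rebuilt from the deposited values, lay between 20956280 and 23824526 fragments in mutants and between 21447256 and 26254217 fragments in controls. Nkx2-2, the targeted gene, lay at 1.10, 0.736 and 0.221 FPKM in mutants 1 to 3 and at 1.13, 1.32 and 0.779 FPKM in controls 1 to 3, so that the groups overlapped. Mutants 2 and 3 carried Xist RNA (19.7 and 22.5 FPKM), while mutant 1 and the controls lay under 0.1 FPKM of Xist and expressed the Y-linked Ddx3y at 11.4 to 13.8 FPKM, so that sex was not balanced between the groups. Both libraries numbered 3 stood apart from the others in their deviations from the group means, which correlated at 0.58 between them.

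The sequences just before the transcription starts of Vip, Npy and Nmu are shown because these 3 genes had the values that led to the choice of the set. They are the 250 bases upstream of the start in RefSeq on GRCm38.p6, read 5′ to 3′ on the gene's strand (chr10:5638968-5639217 on the plus strand for Vip, chr6:49822460-49822709 on the plus strand for Npy and chr5:76363778-76364027 on the minus strand for Nmu). Capitals mark matches, on either strand, to 5 short motifs. TGACG is the core of the cyclic AMP response element, and TGACGTCA is its full form, which contains that core. TATAAA is the form of the TATA box searched for, and CACGTG is an E-box. The letters TNAAGTG stand for a form bound by factors of the NK2 family.
Vip: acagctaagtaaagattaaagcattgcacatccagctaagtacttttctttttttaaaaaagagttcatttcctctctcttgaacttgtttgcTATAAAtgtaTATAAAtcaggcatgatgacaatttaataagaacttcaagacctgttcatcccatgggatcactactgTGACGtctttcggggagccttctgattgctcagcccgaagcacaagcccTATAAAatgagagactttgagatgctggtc
Npy: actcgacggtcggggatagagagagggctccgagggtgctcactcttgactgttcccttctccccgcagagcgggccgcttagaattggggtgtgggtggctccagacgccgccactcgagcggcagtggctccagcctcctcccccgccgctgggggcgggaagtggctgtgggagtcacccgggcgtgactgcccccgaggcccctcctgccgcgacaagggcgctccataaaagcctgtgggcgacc
Nmu: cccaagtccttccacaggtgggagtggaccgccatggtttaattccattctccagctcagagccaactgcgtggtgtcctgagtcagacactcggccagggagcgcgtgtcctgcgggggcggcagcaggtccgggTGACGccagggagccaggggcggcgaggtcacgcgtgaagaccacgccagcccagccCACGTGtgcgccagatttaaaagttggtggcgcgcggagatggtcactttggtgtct
TGACG lies 79 to 75 bases before the start of Vip and 114 to 110 bases before that of Nmu. TATAAA lies 30 to 25 bases before the start of Vip, with further copies from 157 to 152 and from 147 to 142 bases, and CACGTG lies 57 to 52 bases before the start of Nmu. The window of Npy held none of the 5 motifs. Of the 10 genes 7 had an entry, all but Grp, Penk and Calcb. Of these, 5 held TGACG (Vip, Adcyap1, Nos1, Cartpt and Nmu), as did 17.8% of 32851 promoters of the same length. The full TGACGTCA was in 1, Cartpt (1.55% of all promoters), TATAAA in 2 (12.4%), CACGTG in 1 (6.02%) and TNAAGTG in 0 (10.1%). The motifs were picked from general knowledge of such promoters, and a match is a string of letters, not a shown binding site.

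Of the 10 transcripts, 5 did not overlap between the groups, 3 lower in the mutants (Vip, Npy and Cartpt) and 2 higher (Nmu and Calcb). Among all 13596 genes tested, 7.75% did not overlap, 3.71% lower in the mutants and 4.05% higher. Of the 10, 8 reached 0.5 FPKM in 3 or more libraries, the minimum for the limma fit across all genes, and Nos1 and Adcyap1 did not. Mean log2 levels were below the controls for 6 of the 10 and above them for 4, and 55.8% of all genes tested lay below. The median change of the 8 was -0.34, beside -0.02 over all genes tested. In the limma fit 0 of the 8 passed an adjusted p of 0.05 (0.0221% of all genes tested passed, 0.0147% lower and 0.00736% higher; 3.43% had an unadjusted p under 0.05). A fit blocked on replicate gave 3 that passed, Npy and Vip lower and Nmu higher (0.162% of all genes, 0.0956% lower and 0.0662% higher). Their adjusted p with the block was 0.0440 for Vip, 0.00645 for Npy and 0.000673 for Nmu. These 3 calls are among the values that chose the genes, and nothing is read from them.

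**Figure D1:**
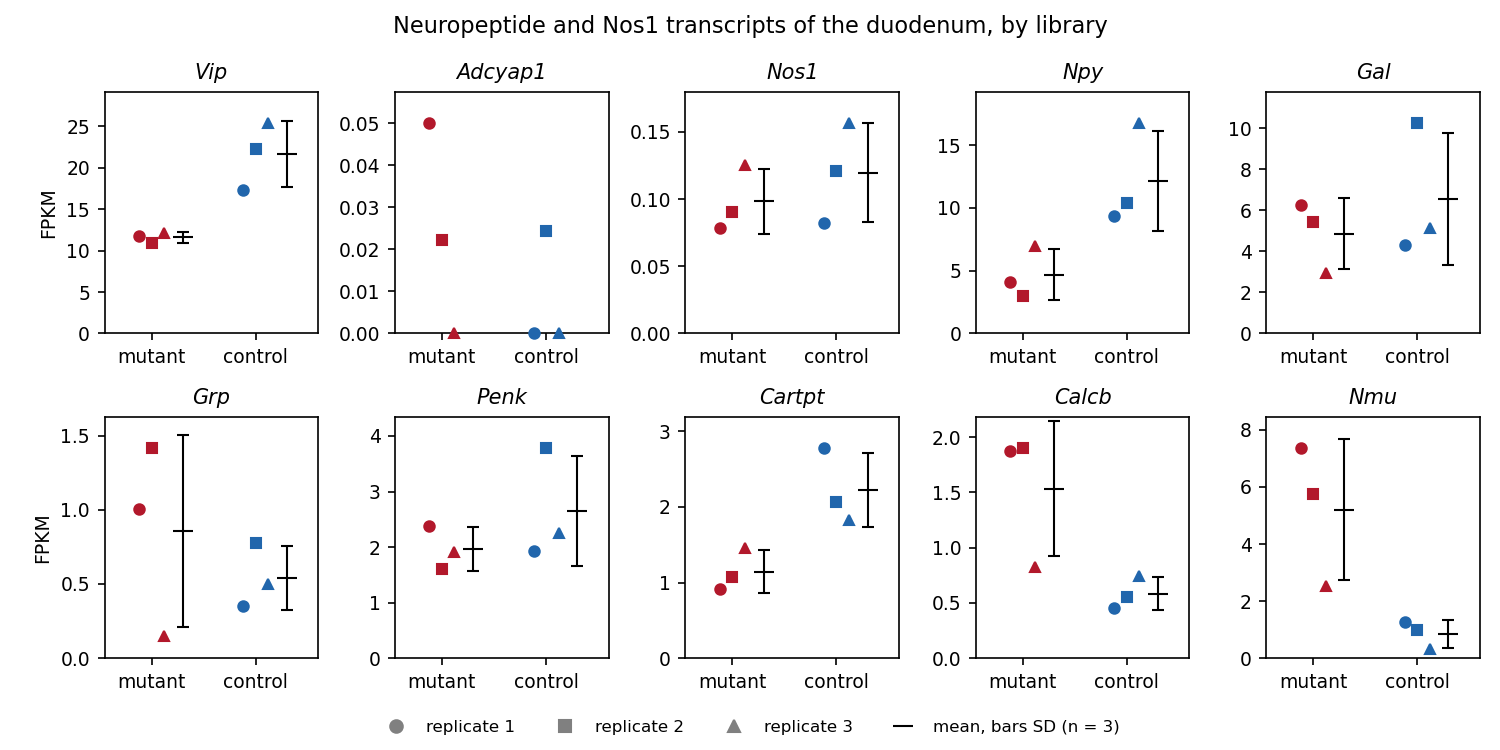
FPKM of the 10 transcripts in each library, mutants left and controls right, with the mean and SD of 3 libraries (none for Adcyap1, which is listed at 0 in 3 libraries). Vip, Npy and Cartpt lie lower in all 3 mutants, and Calcb and Nmu higher, without overlap between the groups.

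Vip (chromosome 10, 4698927 to 4707323 in mm9, the build of all gene positions given here; 7 exons in the annotation), which encodes VIP, was the most abundant of the 10 in both groups. It lay at 11.7, 10.9 and 12.2 FPKM in mutants 1 to 3 and at 17.4, 22.3 and 25.4 FPKM in controls 1 to 3. The mutants lay close together and all below the lowest control, while the controls were spread more widely. The means were 11.6 ± 0.648 FPKM in mutants and 21.7 ± 4.03 FPKM in controls (SD, n = 3 each), a ratio of 0.536 and a log2 change of -0.86 ± 0.15. These values rest on 329 to 342 fragments per mutant library and 600 to 716 per control library, so that counting error is small beside the spread of the controls. In the authors' deposited table the mean normalized counts of Vip were 355 in mutants and 649 in controls, with a fold change of 0.547 and an adjusted p of 0.0355.

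Nos1 makes the nitric oxide that inhibitory motor neurons release, often together with VIP. It lay at 0.0788, 0.0905 and 0.126 FPKM in mutants 1 to 3 and at 0.0821, 0.121 and 0.156 FPKM in controls 1 to 3, and the groups overlapped. Only 7 to 11 fragments per mutant library and 9 to 14 per control library lay on the deposited model of 4386 bases (chromosome 5, 118317128 to 118403820), so few fragments stand behind each value. The exons that the GENCODE annotation gives to the gene cover 10857 bases, so that model leaves out much of its length.

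Adcyap1 (chromosome 17, 93598762 to 93604829), which encodes PACAP, a relative of VIP that binds the same receptors and one of its own, was close to the limit of detection. It had 2, 1 and 0 fragments in mutants 1 to 3 and 0, 1 and 0 fragments in controls 1 to 3. A count of 0 allows up to 3 fragments, which is 0.0761 FPKM in mutant 3, and 0.0607 and 0.0743 FPKM in controls 1 and 3, with counting error only. No difference between the groups can be read at this depth.

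Npy (chromosome 6, 49772728 to 49779504) encodes neuropeptide Y, made by secretomotor neurons of the gut wall and by sympathetic nerves. It lay at 4.07, 3.01 and 6.99 FPKM in mutants 1 to 3 and at 9.33, 10.4 and 16.7 FPKM in controls 1 to 3. All mutants lay below all controls, and the library numbered 3 was the highest of its group on both sides. The means were 4.69 ± 2.06 FPKM in mutants and 12.2 ± 3.99 FPKM in controls (SD, n = 3 each), a ratio of 0.386 and a log2 change of -1.31 ± 0.33. The transcript is short (545 bases) and rested on 24 to 49 fragments per mutant library and 76 to 120 per control library. The authors' deposited table gives Npy a fold change of 0.385 with an adjusted p of 0.472.

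Cartpt (chromosome 13, 100668439 to 100670638; 3 exons), the precursor of the CART peptide, lay at 0.910, 1.07 and 1.46 FPKM in mutants 1 to 3 and at 2.78, 2.07 and 1.83 FPKM in controls 1 to 3. The mutants lay below the controls without overlap, with mutant 3 and control 3 next to each other, and the log2 change was -0.73 ± 0.19. The authors' deposited table gives a fold change of 0.477 with an adjusted p of 1. Cartpt is the only gene of the 10 with a pair of transcripts in the deposited isoform files. The longer one, of 874 bases, lay at 2.73e-07, 0.186 and 1.63e-07 FPKM in mutants 1 to 3 and at 1.46, 1.06 and 0.613 FPKM in controls 1 to 3. The shorter one, of 835 bases, lay at 0.910, 0.883 and 1.46 FPKM in mutants and at 1.32, 1.01 and 1.22 FPKM in controls. The groups thus stood apart in the longer transcript and overlapped in the shorter one. The split was estimated by the authors' software from 10 to 17 fragments per mutant library and 23 to 45 per control library over both transcripts, by the width of the gene's interval.

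Gal (chromosome 19, 3409917 to 3414457), which encodes galanin, lay at 6.25, 5.41 and 2.93 FPKM in mutants 1 to 3 and at 4.29, 10.2 and 5.15 FPKM in controls 1 to 3. The groups overlapped, with control 2 highest and mutant 3 lowest of the 6 libraries, and the log2 change was -0.36 ± 0.38. It was -0.01 without control 2, -0.07 without mutant 3, -0.60 without control 1 and -0.56 without mutant 1. Penk (chromosome 4, 4060683 to 4065592), the enkephalin precursor, lay at 2.39, 1.61 and 1.91 FPKM in mutants and at 1.93, 3.78 and 2.25 FPKM in controls, with a log2 change of -0.32 ± 0.24. Its groups overlapped as well, and control 2 was again the highest library. The change was -0.08 without control 2, -0.22 without mutant 2 and -0.49 without control 1. Of the 1634 exon bases annotated to Penk, 233 are shared with A830012C17Rik, a long noncoding RNA on the other strand. Since the use of strand is not stated, reads there cannot be assigned to either gene.

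Grp (chromosome 18, 66033148 to 66046233), which encodes gastrin-releasing peptide, lay at 1.01, 1.41 and 0.146 FPKM in mutants 1 to 3 and at 0.350, 0.773 and 0.5001 FPKM in controls 1 to 3. Mutants 1 and 2 were the 2 highest libraries and mutant 3 the lowest, so the mutants enclosed the controls. Its log2 change was 0.26 ± 0.41, with 0.73 when mutant 3 was left out and -0.06 when mutant 2 was left out. These values rest on 2 to 22 fragments per mutant library and 6 to 11 per control library.

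Calcb (chromosome 7, 121862157 to 121866879; 5 exons), which encodes the beta form of calcitonin gene-related peptide, lay at 1.88, 1.90 and 0.825 FPKM in mutants 1 to 3 and at 0.456, 0.549 and 0.744 FPKM in controls 1 to 3. The groups did not overlap, but mutant 3 lay just above control 3. The log2 change was 0.87 ± 0.26, from 13 to 34 fragments per mutant library and 9 to 12 per control library. In the authors' deposited table the fold change of Calcb is 2.37 and its adjusted p is 1. Calca, a close relative of Calcb in sequence with which reads could be shared, had at most 0.0705 FPKM in the mutants and at most 0.275 FPKM in the controls.

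Nmu (chromosome 5, 76762520 to 76792802) encodes neuromedin U and had the largest change of the 10. It lay at 7.36, 5.74 and 2.52 FPKM in mutants 1 to 3 and at 1.26, 0.983 and 0.307 FPKM in controls 1 to 3. Every mutant lay above every control, and the library numbered 3 was the lowest of its group on both sides. The means were 5.21 ± 2.46 FPKM in mutants and 0.849 ± 0.488 FPKM in controls (SD, n = 3 each), a ratio of 6.13 and a log2 change of 2.05 ± 0.44. The counts were 95, 83 and 32 fragments in mutants and 20, 13 and 4 fragments in controls. In the authors' deposited table the mean normalized counts were 72.7 in mutants and 11.8 in controls, with a fold change of 6.14 and an adjusted p of 0.438. Of the 828 exon bases annotated to Nmu, 55 are shared with the noncoding 4930432L08Rik on the other strand.

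**Figure D2:**
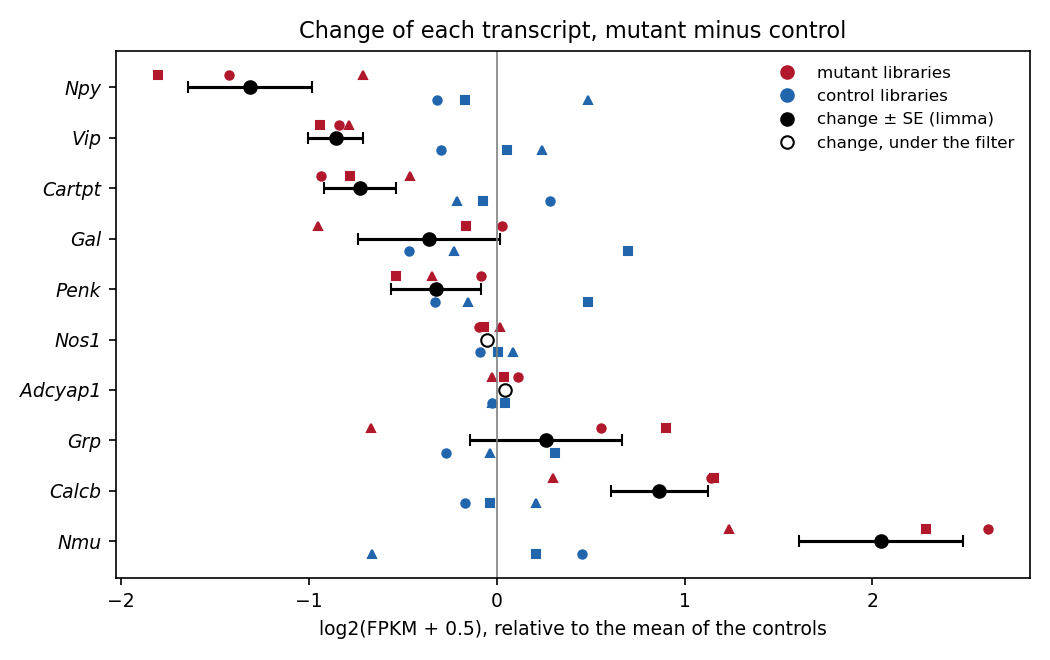
Log2(FPKM + 0.5) of each transcript relative to the mean of the controls, ordered by the change from Npy (-1.31) to Nmu (2.05). Black points are the changes with their SE (open where the gene was under the filter on low values), red symbols above each point are mutant libraries and blue symbols below it are control libraries, with circles, squares and triangles for replicates 1, 2 and 3.

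The order of the levels, which FPKM gives per length, differed between the groups in the places of Nmu, Npy and Cartpt, among others. In mutants Vip stood first without overlap with the next, and Nmu, Gal and Npy followed at means of 5.21, 4.86 and 4.69 FPKM with overlapping ranges. Penk, Calcb, Cartpt and Grp came next, each overlapping its neighbour in the order (means of 1.97 to 0.856 FPKM). In controls Vip again stood first without overlap, and Npy (12.2 FPKM) overlapped Gal (6.56 FPKM). Penk and Cartpt overlapped each other at 2.65 and 2.22 FPKM, and Nmu, Calcb and Grp formed a lower run of overlapping neighbours at 0.849, 0.583 and 0.541 FPKM. Nos1 and Adcyap1 were the lowest in both groups and overlapped neither each other nor the gene above them.

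Across the 6 libraries, log2 levels of Vip and Npy ran together (Pearson r = 0.93), and both ran against Nmu (r = -0.94 with Vip and -0.97 with Npy). Cartpt and Calcb ran against each other (r = -0.95), while Gal went most with Penk (r = 0.79). These values describe 6 libraries whose groups differ, so the group difference is part of each of them. The same holds for the genes most like each in pattern. For Vip these were Itih4, Inhba and Arhgap33 (r = 0.99, 0.98 and 0.98), for Npy Bri3bp, Etv4 and Kcnh2 (0.99, 0.99 and 0.98), and for Nmu Gm10658, 1300014I06Rik and Phf14 (0.98 each). Of 13595 other genes tested, 84 reached an r of 0.9 with Vip, 204 with Npy and 114 with Nmu.

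The markers of neurons in the same libraries were checked next, since the peptides come largely from them. All 19 listed neuron markers were detected, 12 passed the filter on low values, and all 12 had a lower mean log2 level in the mutants, with a median change of -0.25. Of all genes tested, 55.8% lay below the controls. Among the markers under the filter, Phox2a, Slc5a7, Th and Dbh were lower too, while Chat, Elavl3 and Slc18a3 had a higher mean log2 level in the mutants. Chat lay at 0.614, 0.727 and 0.0551 FPKM in mutants 1 to 3 and averaged 0.0717 FPKM in controls, with overlapping groups. Its high values were in mutants 1 and 2, where the median tuft cell marker given below was also high, and which cells carried it was not tested. In limma 0 of the 12 passed and 0 with the block, and voom on rebuilt fragments called 0 genes of any kind. Of the 12, 1 had an unadjusted p under 0.05 in limma (3.43% of all genes tested). Uchl1, a neuronal ubiquitin hydrolase, averaged 6.03 FPKM in mutants and 7.27 FPKM in controls, and Stmn2, a neuronal microtubule regulator, 3.19 FPKM in mutants and 4.04 FPKM in controls. The summed level of the list lay between 24.98 and 29.0 FPKM in mutants and between 28.6 and 35.2 FPKM in controls. Relative to the control mean, the median marker lay at -0.18, -0.37 and -0.20 in mutants 1 to 3 and at -0.11, 0.09 and -0.03 in controls 1 to 3.

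Set against that median in the same library, Vip lay at -0.66, -0.57 and -0.59 in mutants 1 to 3 and at -0.18, -0.03 and 0.27 in controls 1 to 3. Npy lay at -1.24, -1.44 and -0.52 in mutants and at -0.21, -0.26 and 0.52 in controls on this scale. Nmu lay at 2.80, 2.66 and 1.43 in mutants and at 0.56, 0.12 and -0.63 in controls. Of the 6 glial markers 4 were tested and 0 passed (0 at an unadjusted p under 0.05), and their median change was -0.13. Their sum was 14.6 to 19.6 FPKM in mutants and 15.3 to 17.7 FPKM in controls. Entpd2, a surface nucleotidase of enteric glia, averaged 13.7 FPKM in mutants and 13.3 FPKM in controls.

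**Figure D3:**
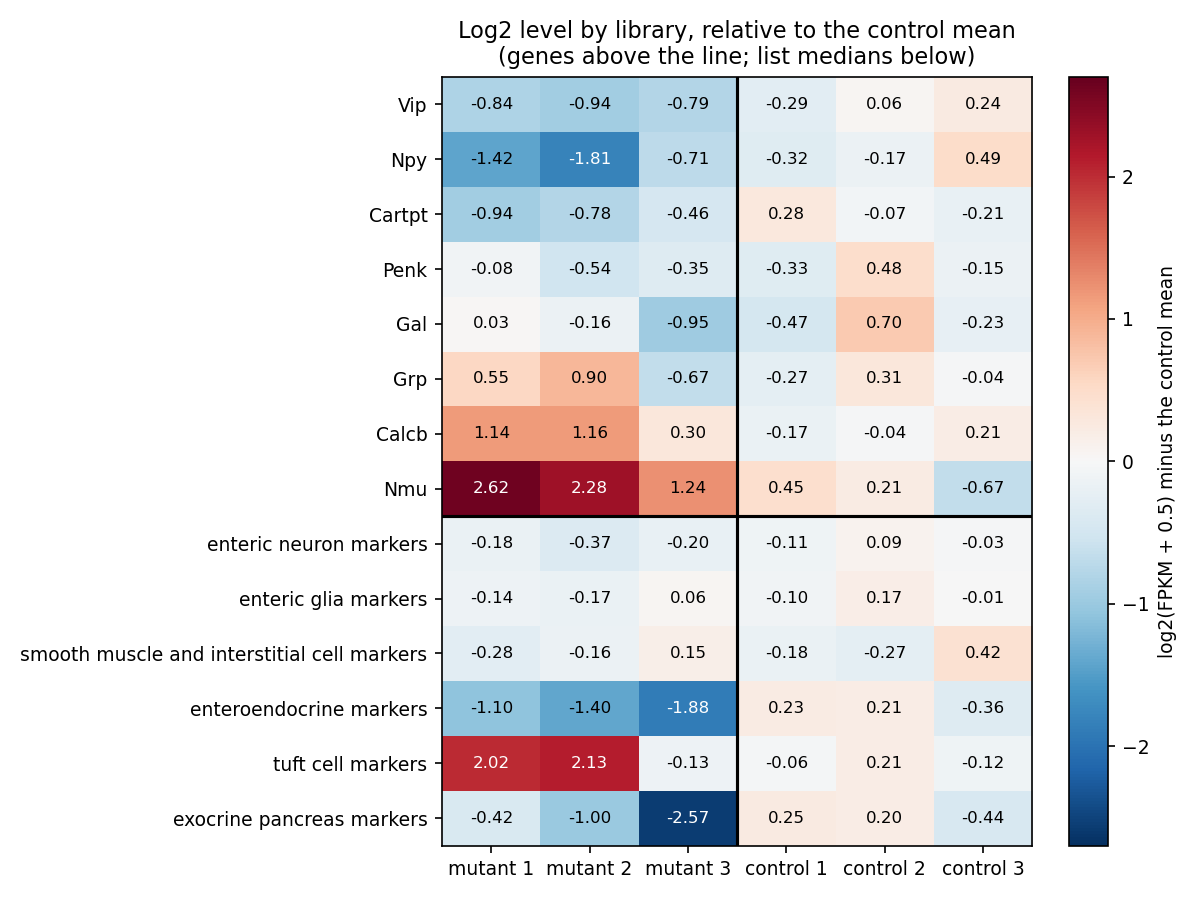
Colours and figures give log2(FPKM + 0.5) relative to the control mean in each library, for the 8 peptide transcripts over the filter (above the line) and as medians of 6 marker lists (below it). Vip and Npy lie at or below -0.71 in all 3 mutants and Nmu at or above 1.24, while the neuron marker median lies between -0.37 and -0.18 in mutants.

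Markers of other cell types lay at different levels between the groups or in single libraries, and no gene of the muscle, tuft, endocrine, pancreas and glia lists was at 0 throughout. Smooth muscle and interstitial cell markers, from the muscle layers that hold many of these nerves, had a median change of -0.09, and 0 of 10 passed (0 at an unadjusted p under 0.05). Acta2, smooth muscle actin, averaged 154 ± 36.3 FPKM in mutants and 168 ± 65.7 FPKM in controls, and Tagln 135 ± 24.5 FPKM in mutants and 138 ± 50.7 FPKM in controls (SD, n = 3 each). The summed level of the list was 601 to 850 FPKM in mutants and 560 to 1063 FPKM in controls. The list median was highest in mutant 3 (0.15) among mutants and in control 3 (0.42) among controls, the libraries in which Vip, Npy and Nos1 were also highest within their group. Cartpt was highest in mutant 3 but lowest in control 3, and Penk was highest in mutant 1 and in control 2 of its groups. The median tuft cell marker stood at 2.02, 2.13 and -0.13 in mutants 1 to 3 and between -0.12 and 0.21 in controls. Their sum was 48.1 to 175 FPKM in mutants and 43.1 to 54.8 FPKM in controls. Calcb, Grp, Nmu and Gal were also higher in mutants 1 and 2 than in mutant 3. So were the medians of the endocrine and pancreas lists given below. Among controls Grp and Gal were highest in control 2, as was the tuft median, but Nmu was highest in control 1 and Calcb in control 3. Of 9 tuft cell markers tested 0 passed in limma, and 2 had an unadjusted p under 0.05 (3.43% of all genes tested). When mutant 3 was left out 7 were called, beside 63 of the 13453 genes tested in that fit. Alox5ap, of leukotriene synthesis, averaged 31.7 ± 19.3 FPKM in mutants and 9.48 ± 2.32 FPKM in controls (SD, n = 3 each).

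The endocrine cells of the epithelium, in which Nkx2-2 acts, make some peptides too. Of 11 tested enteroendocrine markers 1 rose, Ghrl, the ghrelin gene (log2 change 3.90 ± 0.30, limma adjusted p = 0.0276). All 11 had an unadjusted p under 0.05, as did 3.43% of all genes tested, and 9 of them lay below the controls. Of the 11, 9 did not overlap between the groups, beside 7.75% of all genes tested. With the block Ghrl rose and Tph1, Chga, Chgb and Sct fell. Over 15 alternatives the adjusted p of Ghrl ran between 0.000116 and 0.577, and its call was lost under TPM scaling, without a filter, in voom, without mutant 2 and without any 1 control. Without mutant 1, 4 of the markers were called (Ghrl higher, Gip, Sst and Tph1 lower), beside 9 of the 13462 genes tested in that fit. The list median lay at -1.10, -1.40 and -1.88 in mutants 1 to 3 and between -0.36 and 0.23 in controls, and the sum was 804 to 1580 FPKM in mutants and 519 to 732 FPKM in controls. Ghrl makes up most of the sum in mutants, and without it the list summed to 238, 220 and 160 FPKM in mutants 1 to 3 and to 650, 657 and 460 FPKM in controls 1 to 3, lower in every mutant than in any control. Exocrine pancreas markers lay lower in all 12, with 0 that passed in limma. Of the 12, 6 had an unadjusted p under 0.05 (3.43% of all genes tested), and 6 did not overlap between the groups (7.75%). Their median lay at -0.42, -0.9996 and -2.57 in mutants 1 to 3 and between -0.44 and 0.25 in controls. Ctrb1 averaged 1614 ± 848 FPKM in mutants and 4307 ± 498 FPKM in controls, and Cela2a 1321 ± 875 FPKM in mutants and 2819 ± 1042 FPKM in controls (SD, n = 3 each). Their sum was 2930 to 12690 FPKM in mutants and 12580 to 20097 FPKM in controls. The part of sex, neuron, glia, muscle, tuft, endocrine and pancreas content in the values of the 10 transcripts was not tested.

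The receptors of these peptides were not used in the choice of the genes and were tested in the same fit. Their list was chosen with earlier results of these data known, so their p-values are no independent support. Of 19 receptor genes 6 passed the filter on low values, and 0 passed in limma or with the block. Of the 6, 1 had an unadjusted p under 0.05 in limma (3.43% of all genes tested). The median change of the 6 was 0.05, beside -0.02 over all genes tested. Oprm1 and Npy6r were at 0 in every library.

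Vipr1, the VIP receptor of the epithelium, was the most abundant receptor. It lay at 51.2, 53.4 and 74.7 FPKM in mutants 1 to 3 and at 61.6, 49.0 and 64.5 FPKM in controls 1 to 3, with overlapping groups and a log2 change of 0.02 ± 0.18 (limma adjusted p = 0.999). Vipr2, the VIP receptor of smooth muscle, averaged 0.595 ± 0.0894 FPKM in mutants and 0.783 ± 0.231 FPKM in controls (SD, n = 3 each; log2 change -0.22 ± 0.18, limma adjusted p = 0.999). Adcyap1r1, the receptor that prefers PACAP, averaged 0.391 ± 0.142 FPKM in mutants and 0.587 ± 0.0960 FPKM in controls (log2 change -0.30 ± 0.17, limma adjusted p = 0.999).

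Nmur1, the neuromedin U receptor found on type 2 innate lymphoid cells in mice, lay at 2.05, 1.29 and 1.28 FPKM in mutants 1 to 3 and at 0.454, 0.501 and 1.20 FPKM in controls 1 to 3. The groups did not overlap, with control 3 just below mutant 3. The log2 change was 0.77 ± 0.27, which did not pass in limma (unadjusted p = 0.0212, adjusted p = 0.999; adjusted p = 0.600 with the block). Nmur2 was under the filter at 0.437 ± 0.0879 FPKM in mutants and 0.319 ± 0.0727 FPKM in controls (SD, n = 3 each), and Nms, which encodes neuromedin S, the other ligand of these receptors, was at 0 in every library.

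The receptors of neuropeptide Y were all under the filter. Npy1r lay at 0.101, 0.165 and 0.171 FPKM in mutants 1 to 3 and at 0.232, 0.164 and 0.267 FPKM in controls 1 to 3. Npy2r, which acts on nerve endings, lay at 0.169, 0.107 and 0.122 FPKM in mutants and at 0.158, 0.277 and 0.249 FPKM in controls. For both the groups overlapped. Npy4r, listed under its older symbol Ppyr1, and Npy5r stayed at or below 0.0282 FPKM in the mutants and 0.0450 FPKM in the controls. Calcrl and Ramp1, which form the receptor of calcitonin gene-related peptide together, differed by 0.09 ± 0.17 and 0.09 ± 0.18 on the log2 scale and did not pass (limma adjusted p = 0.999 each).

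**Figure D4:**
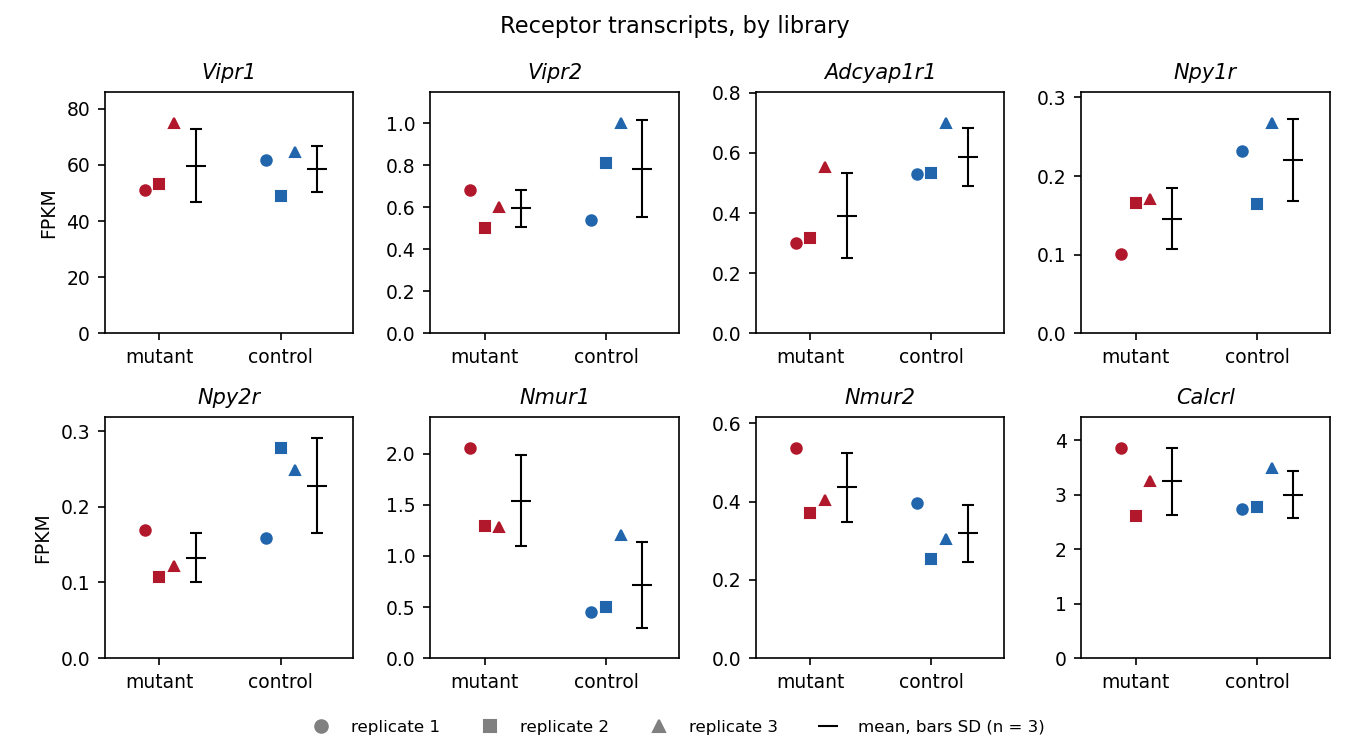
FPKM of 8 receptor transcripts in each library, mutants left and controls right, with the mean and SD of 3 libraries. Vipr1 overlaps between the groups at 49.0 to 74.7 FPKM, and Nmur1 lies higher in the mutants (1.28 to 2.05 FPKM) than in the controls (0.454 to 1.20 FPKM).

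On a list of 9 genes of nitric oxide and cyclic GMP, which includes Nos2 and Nos3, 7 were tested. In limma or with the block 0 passed, with 0 at an unadjusted p under 0.05 in the unblocked fit. Pde5a, the enzyme that breaks down cyclic GMP, averaged 13.2 ± 1.69 FPKM in mutants and 14.3 ± 2.02 FPKM in controls, and Gucy1b3, a subunit of the nitric oxide receptor, 5.35 ± 1.03 FPKM in mutants and 6.11 ± 0.475 FPKM in controls (SD, n = 3 each). The median change of the list, Nos2 and Nos3 included, was -0.15, with 6 of 7 below the controls (55.8% of all genes tested lay below). The other nitric oxide synthases, Nos2 and Nos3, differed by -0.59 ± 0.65 and 0.10 ± 0.24 on the log2 scale and did not pass (limma adjusted p = 0.999 each).

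Among 20 further peptide precursors 7 were tested, and 1 fell in limma, Tac1, the precursor of substance P, which both neurons and enterochromaffin cells make (log2 change -2.38 ± 0.23, adjusted p = 0.0491). With the block Nts, the neurotensin precursor, fell too (log2 change -1.46 ± 0.17, adjusted p = 0.114 in the unblocked limma fit and 0.0183 with the block). Nts averaged 0.0470 FPKM in mutants and 1.02 FPKM in controls, so it passed the filter on low values through the controls alone and could not be fitted when any control was left out or at an FPKM minimum of 1. The size of its change depends on the pseudocount, with -0.94 at 1, -2.90 at 0.1 and -3.88 in voom. Over 15 alternatives the adjusted p of Tac1 ran between 0.000673 and 0.632, and its call was lost at a pseudocount of 0.1, without a filter, under TPM scaling, without trend or robust prior, in voom, and without mutant 1 or any 1 control. That of Nts also passed without mutant 3 (adjusted p = 0.0345 in limma). Of the 7 tested precursors, 4 had an unadjusted p under 0.05 in limma, as did 3.43% of all genes tested. The groups did not overlap in 4 of the 7 (7.75% of all genes tested). The median change of the 7 was -0.62, beside -0.02 over all genes tested, with 5 below the controls and 2 above. Sst averaged 23.0 FPKM in mutants and 70.5 FPKM in controls, and Cck 49.7 and 75.9 FPKM. Both are also on the enteroendocrine list. Of the 20, 3 (Ucn, Nps and Nms) were at 0 in every library. Genes of peptide processing and breakdown had 4 of 8 tested above the controls and 0 that passed in limma. Of the 8, 2 had an unadjusted p under 0.05 (3.43% of all genes tested). Mme, the peptidase neprilysin, averaged 191 ± 91.0 FPKM in mutants and 146 ± 69.6 FPKM in controls, and Dpp4, a peptidase of the brush border, 74.9 ± 17.0 FPKM in mutants and 50.4 ± 8.77 FPKM in controls (SD, n = 3 each). Of the genes of type 2 innate lymphoid cells 4 of 10 were tested and 0 passed (0 at an unadjusted p under 0.05). When mutant 3 was left out 1 was called, Il17rb, beside 63 of the 13453 genes tested in that fit. The median change of the 4 was 0.38, beside -0.02 over all genes tested, with 3 above the controls and 1, Areg, below. Of the 4, 1 did not overlap between the groups (7.75% of all genes tested). It was Gata3, at 0.551 FPKM in mutants and 0.315 FPKM in controls, which passed the filter through the mutants alone. Areg, which encodes amphiregulin, averaged 27.3 ± 12.2 FPKM in mutants and 35.8 ± 32.4 FPKM in controls, and Il1rl1, the interleukin-33 receptor, 7.21 ± 0.675 FPKM in mutants and 5.60 ± 2.02 FPKM in controls (SD, n = 3 each).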

How the data were processed

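Libraries came from the TruSeq RNA kit (total RNA, RIN above 8), per the labels' protocols. Tools of the authors listed in the submitters' processing notes, with no roles or options, are CASAVA 1.8.2, TopHat, Cufflinks and DESeq, and the build is mm9; use of strand is not given in the sources used here. The authors deposited FPKM per gene and isoform and a coverage signal per isoform, per the file headers. The table of the authors' own comparison holds group means of normalized counts as a signal, per the file headers. It also holds their ratio as a fold change, the log2 of it, and p-values raw and adjusted, all as deposited by the authors.

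Deposited FPKM, as log2(FPKM + 0.5), went into limma 3.58.1 (statmod 1.5.0; trend and robust prior, two-sided, Benjamini-Hochberg) in R 4.3.3, over the 13596 genes that reached 0.5 FPKM in 3 or more libraries; the fit was checked on simulated data. The p-values measure the spread between samples, which may be technical. Fragments were rebuilt from the width of the Cufflinks intervals and from coverage (fitted read length 101 bases), and 92.0% of 18013 values of up to 20 fragments lay within 0.1 of a whole number. Intervals and floors cover counting error only. Of the gene rows, 712 share a name and stayed separate in the fit; a named gene is its first row. Python 3.11.15, pandas 2.3.3, numpy 2.4.6, scipy 1.17.1 and matplotlib 3.10.9 were also used.

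Replicate numbers are in the titles. Deviations from the group means correlated within same-numbered pairs at 0.26, 0.25 and 0.58. Mutant 2 correlated at 0.30 with control 1, and mutant 1 at 0.19 with control 2. The values thus show no pairing for numbers 1 and 2, and what the numbers mark is not in the labels. The block takes the numbers to pair the samples, which is an assumption, and it is given only as an alternative. Alternatives were quantile and TPM scaling, pseudocounts of 0.1 and 1, no filter, an FPKM minimum of 1, a plain prior without trend or robustness, the block, voom on rebuilt fragments and leaving out each library.

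The genes described and the lists were chosen with earlier results of these data known. The p-values of list genes, Ghrl, Tac1 and Nts among them, are therefore no independent support. Named beside the 10 are the targeted gene, list genes called in limma or with the block (up to 6), otherwise the 2 of highest mean FPKM, all receptors of Vip, Npy and Nmu, and the 3 genes of highest correlation with each of these. The other genes named were added after their values were seen, and some genes that the rule names are not reported here.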

Additional observations from a re-analysis of the deposited data

How the results depend on the processing

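The limma fit called 3 genes of all tested and 2 of those on the lists. Calls over all genes numbered 1 under TPM scaling, 1 without a filter, 0 in voom and 22 with the replicate block, and from 0 to 63 when 1 library was left out, the most without mutant 3 (9 without mutant 1). Calls on the lists numbered 0 under TPM scaling, 0 without a filter, 1 at a pseudocount of 0.1, 1 without trend or robust prior, 0 in voom, 7 with the replicate block and from 0 to 11 without 1 library, the most again without mutant 3. The block changed no other call described. Of the 10 transcripts, 6 had a mean below the controls in the main fit and from 6 to 7 when 1 library was left out. Over 14 settings the log2 change lay between -1.004 and -0.74 for Vip, between -1.62 and -1.07 for Npy and between 1.69 and 2.52 for Nmu. The settings of filter, prior and block cannot alter this difference of group means and do not speak to its stability. Voom is not among the 14. Grp was the only one of the 10 whose sign differed, in 1 of the 14 (-0.06 without mutant 2). For Nos1 and Adcyap1 the pseudocount of 0.1 moved the change to -0.14 and 0.19, by more than the SD of the replicates. Depth limits Nos1, Adcyap1, Grp and Calcb, and the control values of Nmu, which rest on 4 to 20 fragments.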
